A study of Stipitochalara longipes with 7 samples.

Results

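The needle litter ascomycete Stipitochalara longipes (Chalara longipesis in the sample descriptions) was compared at 5 and at 2 months of growth on dead pine needles. The comparison uses the 4 libraries harvested at those times (2 at 5 months and 2 at 2 months) of the 7 in the series, and the members were taken by the harvest time in their labels. All groups shared the same culture: sterilised Scots pine (Pinus sylvestris) needles on sand, an added ammonium chloride solution, and inoculum in the form of needles that the fungus had already colonised for 2 months on agar without nitrogen. No group was left without ammonium or without the fungus, so the 2-month harvest is the earliest stage and not an uncolonised baseline. The labels name no strain and call the libraries of a harvest biological replicates. Each library holds RNA from 800 mg of ground needle and sand material, so a p-value here measures the spread between such extracts. The 3 libraries of 10 months entered the choice of tested gene models, the scaling and the estimate of the spread, but not the comparison itself. Their values are given where they place a 5-month level.

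Pine needle litter is a slow-decaying substrate, in which cellulose and hemicelluloses are embedded in lignin and surrounded by waxes and phenolic compounds. Fungi that live on it secrete enzymes that cut these polymers outside the cell and take up the sugars and amino acids that are released. Members of the order Helotiales, to which this fungus belongs, are common inhabitants of conifer needles and roots. No source used here pairs the JGI (Joint Genome Institute) protein identifiers of the tables with names, products or positions, so gene models are given by identifier and length, their roles are not stated, and the labelled species was not checked against marker genes. For the same reason no sequence is shown.

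At 5 months, 186 of 14753 tested gene models differed from 2 months (1.26% of those tested). The direction was higher at 5 months in 108 gene models (0.732%) and lower in 78 (0.529%). The changes were large in both directions. Among the 108 rises the median log2 fold change was 3.91 and the smallest 1.85. At least 16-fold were 43 rises, with the 10 rises that had 0 reads at 2 months counted at their lower bounds given below (52 by the fitted fold changes). In all, 32 rises had 0 reads in 2-month replicate 2, and those with reads in 2-month replicate 1 keep their fitted values in both counts. Among the 78 falls the median was -3.01 and the smallest -1.72, and 19 falls were at least 16-fold. Over all tested gene models the median log2 fold change was 0.27, and the middle 50% lay between -0.53 and 1.51. The test was edgeR's quasi-likelihood test with Benjamini-Hochberg adjustment, at an adjusted p under 0.05, and the unadjusted p was under 0.05 in 2331 gene models, of which 1466 were higher and 865 lower at 5 months. RNA was measured in bulk, so a smaller part of the mycelium in a given state and less RNA per cell cannot be told apart.

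The libraries were put on one scale by median of ratios. Each library is divided by its median ratio to the geometric mean of all libraries, over models with reads in every library. Levels are given as reads per 1000000 reads of this scaled library size (scaled CPM). The median-of-ratios factors ran from 0.215 to 3.01 across the 7 libraries. With TMM factors the balance turned, with 92 rises and 110 falls among 202 calls, 170 of them also called by median of ratios, and the median of all tested models was 0.10. Without any factor (library size only) edgeR called 0 gene models, 584 had an unadjusted p under 0.05, and the median was 1.11. The balance between rises and falls therefore depends on the scaling. As given below, it also differs with the test used and with the 2-month libraries. For each named gene model the distance from the median of all tested models is given beside its fold change. The median differs by level, from 1.65 under 1 scaled CPM to -1.20 over 1000 scaled CPM. The distance is therefore not matched for level.

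**Figure D1:**
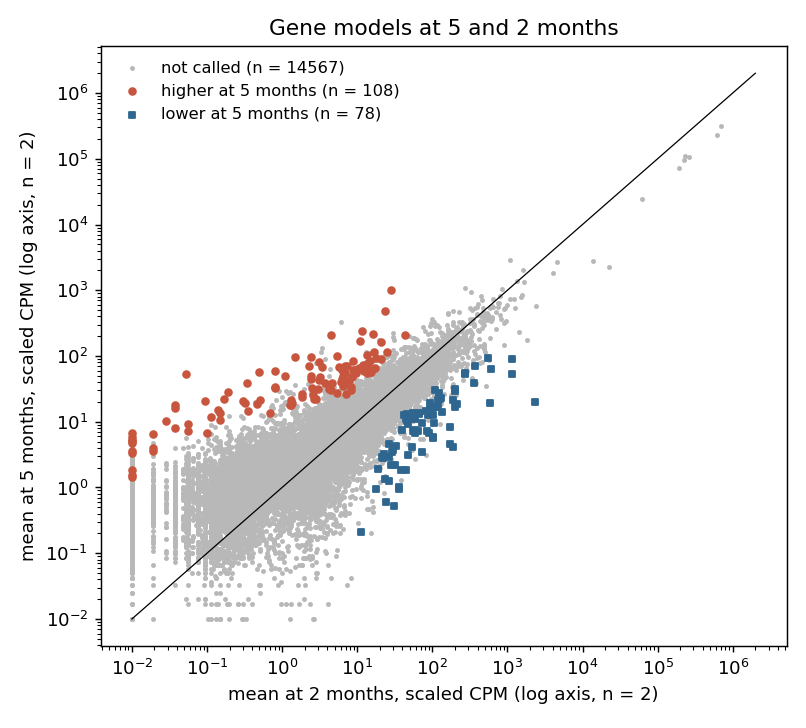
Mean level of each of the 14753 tested gene models at 5 months (vertical axis) against its mean at 2 months (horizontal axis), both in scaled CPM on log axes and both from 2 libraries. Circles mark the 108 gene models called higher and squares the 78 called lower at 5 months, the line marks equal levels, and means under 0.01 scaled CPM are drawn at 0.01.

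Gene model 368469 (1336 bp) was the most abundant of the rises. It stood at 944 and 1093 scaled CPM in the 5-month replicates 1 and 2, against 41.5 and 15.1 scaled CPM in the 2-month replicates 1 and 2. These levels rest on 23734 and 65704 reads at 5 months, against 2199 and 143 reads at 2 months. The groups did not overlap, and the closest pair across harvests was still 22.7-fold apart. Counted per kilobase, the gene model ranked 24th and 14th among the tested models in the 5-month libraries, against 1471st and 3215th in the 2-month libraries. The mean was 1019 ± 105 scaled CPM at 5 months (SD, n = 2) and 28.3 ± 18.7 scaled CPM at 2 months (SD, n = 2). The log2 fold change of gene model 368469 was 5.16 (SE 0.65, edgeR adjusted p = 0.0128), which is 4.89 above the median of all tested models. At 10 months it stood at 124, 120.1 and 228 scaled CPM.

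Gene model 392368 (1811 bp) was the next most abundant rise. It had 432 and 538 scaled CPM in the 5-month libraries, against 17.6 and 29.4 scaled CPM in the 2-month libraries. Every 5-month library was at least 14.7-fold above every 2-month library. The mean was 485 ± 75.3 scaled CPM at 5 months (SD, n = 2) and 23.5 ± 8.35 scaled CPM at 2 months (SD, n = 2). Its log2 fold change was 4.37 (SE 0.46, edgeR adjusted p = 0.00657), or 4.10 above the median of all tested models. Its rank per kilobase was 103 and 54 in the 5-month libraries, against 3702 and 2300 in the 2-month libraries. At 10 months 392368 stood at 97.1, 111 and 144 scaled CPM, below both 5-month libraries and above both 2-month libraries, as 368469 did.

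Gene model 425196 (933 bp) had the highest 2-month level among the falls. It had 23.6 and 15.8 scaled CPM in the 5-month libraries, against 4161 and 454 scaled CPM in the 2-month libraries. The 2-month libraries were themselves 9.17-fold apart, and the closest pair across harvests differed 19.2-fold. Its log2 fold change was -6.87 (SE 1.26, edgeR adjusted p = 0.0353), or -7.15 from the median of all tested models. Per kilobase the gene model ranked 1462nd and 2142nd in the 5-month libraries, against 11th and 41st in the 2-month libraries. At 10 months it was again abundant in all 3 libraries, at 1964, 2759 and 501 scaled CPM.

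Gene model 403213 (1011 bp), the next most abundant fall, was nearly equal in both 5-month libraries. It had 54.0 and 52.7 scaled CPM in the 5-month libraries, against 1512 and 824 scaled CPM in the 2-month libraries. The mean was 53.3 ± 0.873 scaled CPM at 5 months (SD, n = 2) and 1168 ± 487 scaled CPM at 2 months (SD, n = 2). The log2 fold change was -4.45 (SE 0.54, edgeR adjusted p = 0.0105), or -4.73 from the median of all tested models, and the closest pair across harvests differed 15.3-fold. Its rank per kilobase was 662 and 645 in the 5-month libraries, against 22 and 23 in the 2-month libraries. At 10 months 403213 stood at 605, 619 and 881 scaled CPM, above both 5-month libraries.

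**Figure D2:**
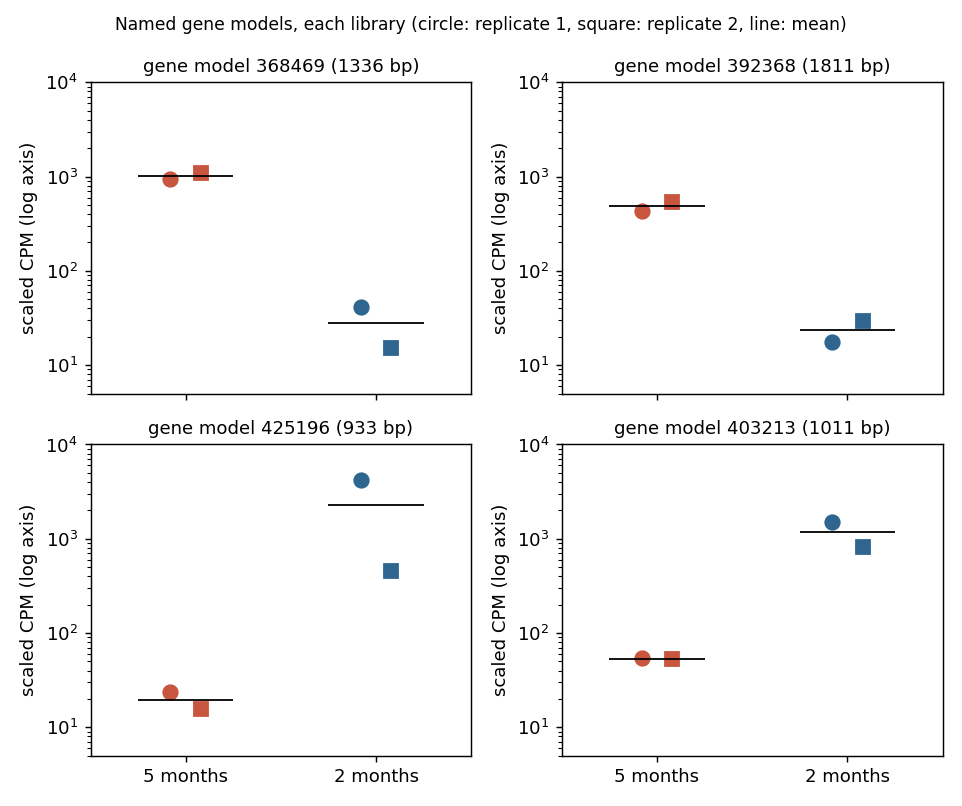
Scaled CPM (log axis) of the 2 most abundant rises and the 2 most abundant falls in each 5-month and each 2-month library, with circles for replicate 1, squares for replicate 2 and a line at the mean. No panel shows an overlap between harvests, and 425196 has the widest gap between its 2-month libraries, at 4161 and 454 scaled CPM.

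The calls depend on both 5-month libraries. Without 5-month replicate 1 edgeR called 7 gene models (1265 with an unadjusted p under 0.05), and without 5-month replicate 2 it called 1 (1203 with an unadjusted p under 0.05). Of the named gene models, 392368 was called without 5-month replicate 1 (adjusted p = 0.0362), while 368469 (0.0502), 425196 (0.288) and 403213 (0.12) were not, and without 5-month replicate 2 their adjusted p ran from 0.0639 to 0.315. The log2 fold changes of the 4 without 5-month replicate 2 were 5.06, 4.20, -6.60 and -4.43, close to those with all libraries. Without 2-month replicate 1 edgeR called 3846 gene models (2954 up and 892 down) and without 2-month replicate 2 it called 970 (440 up and 530 down), including 186 and 181 of the 186, and each such fit takes the spread of the lone library from the other groups. For 425196 the log2 fold change without 2-month replicate 1 was -4.54. Leaving out 10-month replicate 1 or 2, which changes the tested models, the scaling and the estimate of the spread, gave 97 and 80 calls. Gene model 425196 was not among them (edgeR adjusted p = 0.0606 and 0.0537).

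One gene model, 430801 (639 bp), was called without 5-month replicate 1 as well as without 5-month replicate 2, and is named here although it was chosen after its values were seen. It had 168 and 257 scaled CPM in the 5-month libraries, against 5.57 and 3.49 scaled CPM in the 2-month libraries. Those values rest on 4214 and 15441 reads at 5 months, against 295 and 33 reads at 2 months. The log2 fold change of 430801 was 5.53 (SE 0.46, edgeR adjusted p = 0.00418), or 5.25 above the median of all tested models, and each 5-month library was at least 30.1-fold above each 2-month library. Over 17 alternative fits, which include the 2 that chose it, its log2 fold change lay between 5.09 and 6.42, and it did not pass with library size without factors. At 10 months it stood at 38.3, 46.2 and 47.3 scaled CPM.

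The 2 directions differed in level. The rises were mostly weakly expressed models at 2 months, with a median of 34.4 and 37.7 scaled CPM in the 5-month libraries, against 2.82 and 2.49 scaled CPM in the 2-month libraries. The falls were well expressed at 2 months, with a median of 10.0 and 9.70 scaled CPM in the 5-month libraries, against 77.0 and 73.0 scaled CPM in the 2-month libraries. The median over all tested models was 4.02 and 4.44 scaled CPM in the 5-month libraries, against 3.36 and 3.60 scaled CPM in the 2-month libraries. Of the reads outside the most abundant models described below, the 108 rises held 2.58% and 2.71% at 5 months, against 0.212% and 0.178% at 2 months. The 78 falls held 0.459% and 0.512% at 5 months, against 5.39% and 2.79% at 2 months. These values chose the lists and are given as a description. In the 10-month libraries the rises had medians of 15.96, 13.9 and 16.9 scaled CPM and the falls 25.2, 22.3 and 18.2 scaled CPM. In each case these lay between the medians of the earlier harvests. Since the lists were chosen by the distance between those harvests, a level in between can follow from the choice, and it was not tested.

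**Figure D3:**
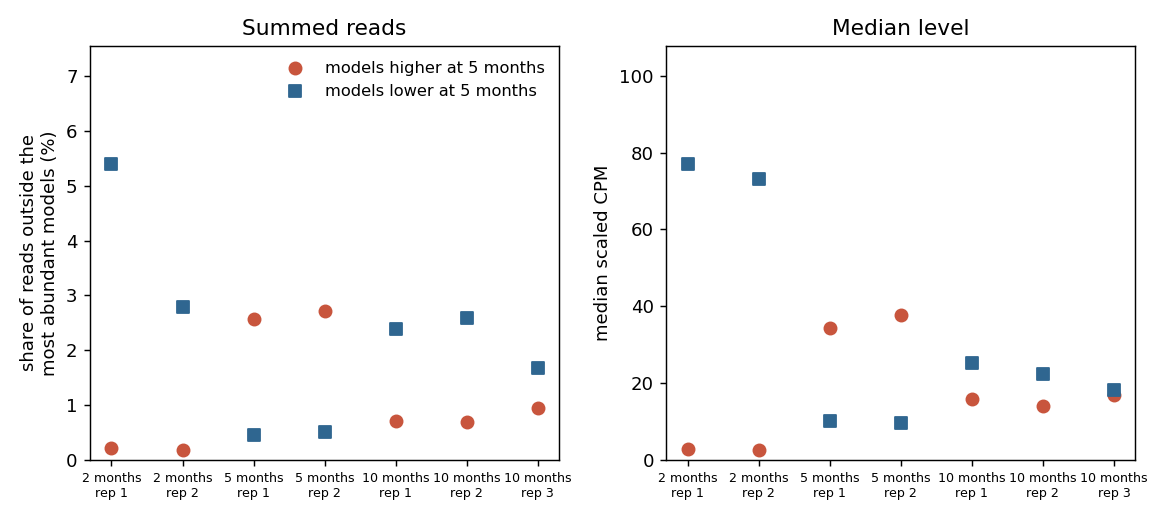
The 108 gene models called higher (circles) and the 78 called lower (squares) at 5 months, in each of the 7 libraries in order of harvest. The left panel gives their summed reads as a percentage of the reads outside the most abundant models, and the right panel their median level in scaled CPM; at 10 months both lists have medians between 13.9 and 25.2 scaled CPM.

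The share of gene models called grew with the level, and its direction turned. Of 3876 models with a mean under 1 scaled CPM over the 4 libraries, 3 rose and 0 fell, and of 5930 models at 1 to 10 scaled CPM, 27 rose and 2 fell. At 10 to 100 scaled CPM 72 rose and 61 fell among 4514 models (1.60% and 1.35%). At 100 to 1000 scaled CPM 6 rose and 14 fell among 413 (1.45% and 3.39%), and of the 20 models above 1000 scaled CPM 1 fell, which was 425196. The median log2 fold change of all models in a band followed the same order, at 1.65, 0.30, -0.16, -0.36 and -1.20. The last value rests on 20 models. They include the most abundant models described below, most of which changed sign without 2-month replicate 2. Depth limits the 2 lowest bands, since 5184 tested models had 0 reads in 2-month replicate 2 and a fitted fold change of such a model is no bound. Up to 3 reads are compatible with a count of 0, or 0.318 scaled CPM in that library and 0.0567 scaled CPM in 2-month replicate 1.

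**Figure D4:**
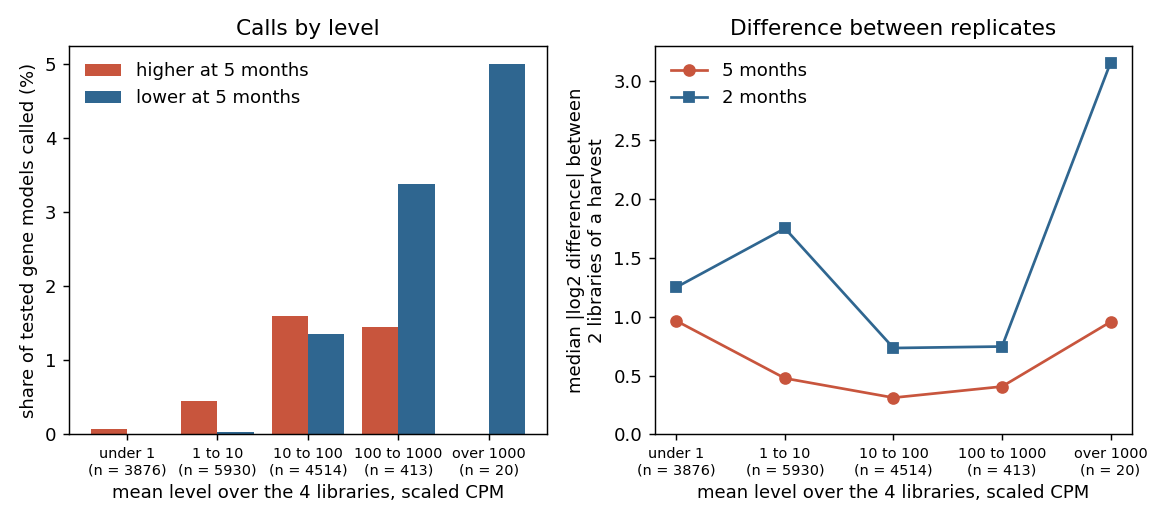
Left, the percentage of tested gene models called higher and lower at 5 months in 5 bands of mean level over the 4 libraries; right, the median absolute log2 difference between the 2 libraries of each harvest in the same bands. The right panel shows the 2-month pair above the 5-month pair in every band, at 1 to 10 scaled CPM with 0.48 at 5 months and 1.75 at 2 months, where reads under 3 were set to 3. In scaled CPM that floor lies further apart between the 2-month libraries than between the 5-month libraries, which enters the values of the low bands.

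Replicates lay closer together at 5 months than at 2 months. The median absolute log2 difference between the libraries of a harvest was 0.47 at 5 months and 1.14 at 2 months over all tested models, with counts under 3 set to 3. Between the 5-month libraries 834 models (5.65%) were more than 4-fold apart, against 4421 models (30.0%) between the 2-month libraries. Depth enters these values, since a model at the floor in both libraries was under 4-fold apart at 5 months but over 4-fold apart at 2 months. At 10 to 100 scaled CPM the median difference was 0.31 at 5 months and 0.73 at 2 months. Of the 4421, 2241 were higher in replicate 1 and 2180 higher in replicate 2. Part of the 2180 comes from the floor of 3 reads, at 0.0567 scaled CPM in replicate 1 and 0.318 scaled CPM in replicate 2. A model with at most 3 reads in both 2-month libraries was thus counted as over 4-fold apart and higher in replicate 2. How evenly the difference ran in both directions was therefore not determined. Each library was also set against the other 3. In 5-month replicates 1 and 2, 0 and 1 models were at least 8-fold above each of the other libraries and 12 and 7 at least 8-fold below, against 25 and 128 models above and 106 and 694 below in 2-month replicates 1 and 2. Replicate 2 of 2 months thus stood apart from the rest. The 10 leading models outside the most abundant ones held 9.01% and 5.21% of the other reads in the 5-month libraries, against 8.10% and 21.8% in the 2-month libraries.

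A count that uses no estimate of the spread gave more rises than falls. In 536 gene models (3.63% of those tested) every 5-month library was at least 4-fold above every 2-month library, and in 146 (0.99%) it was at least 4-fold below, again with counts under 3 set to 3. Of the 108 rises 86 were among the 536, and of the 78 falls 56 were among the 146. The calls and this count rest on the same reads and scale, so their overlap can follow from that. All 186 called models were free of overlap between the harvests. Over all tested models 4961 (33.6%) were higher at 5 months without overlap and 2334 (15.8%) were lower without overlap. The count of 536 depended on the floor, at 974 with a floor of 1 read per library and 219 with a floor of 10 reads. The count of falls moved less, at 155 and 133.

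The rises that had no read at 2 months were all of low level. Of the 14753 tested models 478 had 0 reads in both 2-month libraries and reads in both 5-month libraries. The reverse, 0 reads in both 5-month libraries and reads in both 2-month libraries, held for 1. Both counts cover only models kept by the low-count filter, which a model without reads at 1 harvest passes through its reads at the others. The harvests differ in depth here, since the 5-month replicates 1 and 2 had 6880842 and 14010114 reads outside the most abundant models, against 16923473 and 2938002 in the 2-month replicates 1 and 2. Of the 108 rises, 10 had 0 reads in both 2-month libraries, and their 5-month means were 1.43 to 6.80 scaled CPM. Set against 3 reads in each 2-month library, the closest pairs across harvests for these 10 were at least 3.26-fold to at least 17.3-fold apart. With the 10 at these bounds and the other rises at their fitted values, the median log2 fold change of the rises was 3.71. No fall was at 0 reads in both 5-month libraries.

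The rises and falls also differed in the length of the gene models. The rises had a median length of 1735 bp (quartiles 1321 and 2063 bp) and the falls 1234 bp (quartiles 899 and 1945 bp), against 1424 bp for all tested models. Of the 7144 models of 1000 to 2000 bp 64 rose and 34 fell (0.896% and 0.476%), and of the 3285 models of 500 to 1000 bp 11 rose and 23 fell (0.335% and 0.70%). Longer models collect more reads at the same number of transcripts, so the lengths were also set side by side within the band of 10 to 100 scaled CPM. There the medians were 1800 bp for the rises and 1305 bp for the falls, against 1637 bp for all models tested in that band. The lengths were not tested, and the integrity of the RNA, which can change the yield of long transcripts, was not stated per library by the labels. Reads on the called models were placed uniquely, with a median unique share of 100% and 1 of the 186 under 90%.

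The list of the most abundant transcripts differed in part between the harvests. Of the 100 models with the most reads per kilobase in each library, outside the most abundant ones, the 5-month libraries shared 75 and the 2-month libraries shared 67. Pairs of a 5-month and a 2-month library shared 53 to 62, and 42 models were among the 100 in all 4 libraries. In both 5-month libraries but in neither 2-month library stood 20 models, of which 3 were called different between the harvests. In both 2-month libraries but in neither 5-month library stood 17, of which 5 were called. Over all tested models 1.26% were called. The 20 and the 17 were picked by the same reads as the calls, so a higher share among them can follow from the choice. The reads were spread over more models at 5 months, where the leading 627 and 889 models together held 50% of the reads outside the most abundant ones, against 445 and 356 models at 2 months. Each harvest has 2 libraries, for which the smallest two-sided p of an exact permutation test is 0.333, so this difference was not tested.

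The levels above are set apart from 8 gene models that each took at least 1% of the total gene reads on average over the 4 libraries. Their joint share was 86.9% and 30.0% in the 5-month libraries, against 47.2% and 93.3% in the 2-month libraries, a mean of 58.4% ± 40.3 at 5 months (SD, n = 2) and 70.3% ± 32.6 at 2 months (SD, n = 2). The spread within each harvest was larger than the difference between the means, and 5-month replicate 1 and 2-month replicate 2 were the high libraries. Gene model 391853 (1039 bp), the largest, took 27.9% and 14.4% at 5 months, against 15.2% and 28.4% at 2 months. Gene model 358623 (426 bp) took 22.0% and 1.71% at 5 months, against 4.04% and 26.1% at 2 months. In 7 of the 8 the libraries stood in this arrangement, with 5-month replicate 1 and 2-month replicate 2 above the other libraries. These 7, among them 358617 (267 bp), 358619 (246 bp), 358649 (162 bp), 434685 (409 bp) and 500279 (363 bp), had log2 fold changes from -1.09 to -1.42 with edgeR adjusted p of 0.749 to 0.85. Without 2-month replicate 2 all 7 had the opposite sign, from 0.86 to 3.41, with adjusted p of 0.355 to 0.784. The identifiers of 4 of the 8 lie between 358617 and 358649, and no source read here says what the numbering stands for. Whether these reads are messenger RNA was not tested.

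**Figure D5:**
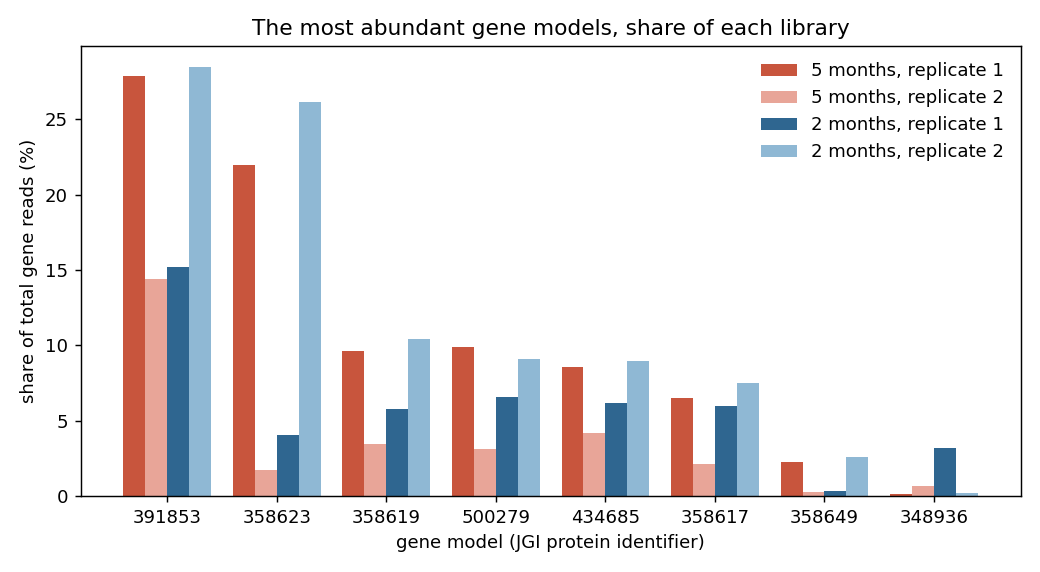
Share of total gene reads (%) taken by each of the 8 gene models with a mean of at least 1% over the 4 libraries, as bars for 5-month replicates 1 and 2 and 2-month replicates 1 and 2. In 7 models the bars of 5-month replicate 1 and 2-month replicate 2 are the tallest pair, and 348936 has its tallest bar in 2-month replicate 1 (3.20%).

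Gene model 348936 (861 bp), the eighth, did not follow the arrangement of the other 7. It took 0.155% and 0.671% of the total gene reads in the 5-month libraries, against 3.20% and 0.183% in the 2-month libraries, so its shares overlapped between the harvests. In scaled levels it had 3246 and 2233 scaled CPM in the 5-month libraries, against 19378 and 8536 scaled CPM in the 2-month libraries. On that scale the groups did not overlap, and the closest pair across harvests was 2.63-fold apart. The mean was 2740 ± 717 scaled CPM at 5 months (SD, n = 2) and 13957 ± 7666 scaled CPM at 2 months (SD, n = 2). The log2 fold change of 348936 was -2.35 (SE 0.85, edgeR adjusted p = 0.23), so the difference did not pass in edgeR. It passed with DESeq2 (-2.35, adjusted p = 0.000820), with limma-voom and quality weights (-2.45, adjusted p = 0.00574) and in edgeR without 2-month replicate 2 (-2.98, adjusted p = 0.0235). At 10 months it stood at 11653, 13134 and 9820 scaled CPM, between the 2-month libraries and above both 5-month libraries.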

How the data were processed

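Total RNA from needle microcosms was sequenced as paired reads of 125 bp, per the labels. Per the file headers, the authors deposited, for 19765 gene models per library, counts of unique and of total gene reads together with RPKM. Aligner, counter, genome build and annotation: not given in the sources used here. All results rest on total gene reads unless unique reads are named. The deposited RPKM served to recover gene model lengths, which differed between libraries by at most 0.00448 bp. Library totals of the 4 libraries were 20009777 to 52554481 reads. Floors of 3 reads allow for counting error alone; the reads carry no molecular identifiers, so they are not independent molecules.

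Gene models were kept with filterByExpr (14753), scaled by median of ratios and fitted in edgeR 4.0.16 (R 4.3.3) with glmQLFit and glmQLFTest, with all 7 libraries in 3 groups. The common dispersion was 0.435. Standard errors were taken as |log2 fold change| / sqrt(F). Adjusted p-values are Benjamini-Hochberg over all tested models. Alternatives used DESeq2 1.42.0 and limma 3.58.1. The fit was tested on simulated data. Named models were the 2 rises and 2 falls with the highest mean in the higher harvest among called models without overlap, and every model holding on average at least 1% of the reads over the 4 libraries. The comparison, this rule and the scaling were chosen with earlier results of these data known. Lists of functional genes matched 0 models, since no names were at hand, and were not tested.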

Additional observations from a re-analysis of the deposited data

How the results depend on the processing

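With library size in place of median of ratios, edgeR called 0 gene models (584 at an unadjusted p under 0.05), none of the 5 named changes passed, and 444 models (440 up, 4 down) were at least 4-fold apart in every pairing. No low-count filter gave 663 calls (401 up, 262 down), DESeq2 1262 (869 up, 393 down) and limma-voom with quality weights 344 (123 up, 221 down). The lists of no filter and DESeq2 held all 186, and the list of limma-voom held 134 of them. The 4 libraries alone gave 80 calls (44 up, 36 down), 72 of them among the 186, without 425196 (edgeR adjusted p = 0.0717). Calls were close to 186 with TMM (202), without the 8 abundant models (184), with a stricter filter (179) and with unique reads (186). Leaving out 1 of the 7 libraries gave 1 to 3846 calls, and leaving out 1 of the 4 compared gave 1101 to 3275 models at least 4-fold apart in every pairing. That count, 682 in all, was 1129 with a floor of 1 read per library and 352 with a floor of 10, both chosen after seeing the data.

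The replicate block gave 156 calls (92 up, 64 down, 122 of them among the 186). Deviations of same-numbered 5- and 2-month libraries correlated at -0.0976 over 14753 models, and the labels give no pairing, so the numbers were not used. Of uncalled models, 358623 (0.87) and 358649 (0.48) had the opposite sign under the block, and 358649 (0.26) under limma-voom. Leaving out 1 library gave log2 fold changes of -4.76 to 0.86 for 358617, -4.50 to 1.46 for 358619, -6.78 to 3.11 for 358623, -5.92 to 3.41 for 358649, -3.89 to 1.64 for 391853, -4.04 to 1.23 for 434685 and -4.50 to 1.32 for 500279. For the called models these ranges were 4.46 to 6.06 (368469), 4.03 to 4.62 (392368), -7.88 to -4.54 (425196) and -4.98 to -3.96 (403213). Why the values shifted was not examined: the cause was not tested. Depth limits low models most in 2-month replicate 2.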
